A study of Homo sapiens with 17 samples.

Results

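ERVK elements, the repeat annotation's name for the human endogenous retroviruses of the HERV-K type, were followed locus by locus in senescent fibroblasts depleted of SMARCA4. The members were all repeat loci whose class and family read LTR and ERVK. They numbered 9688 of the 4748242 annotated repeat loci and formed 42 of 1261 repeat subfamilies, with 8076 solitary or flanking long terminal repeats (LTRs) and 1612 internal fragments. Over all 17 libraries, 6684 of the 9688 loci had no count, 3004 had at least 1 count, 594 had at least 10 counts, and 107 loci and 36 subfamilies passed the filter on low counts and were tested.

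The cells were IMR90 ER:RAS, human lung fibroblasts infected with a retrovirus that carries RAS fused to a part of the estrogen receptor, so that 4-hydroxytamoxifen (4OHT) switches on RAS and the cells enter oncogene-induced senescence. RNA, selected for poly(A) and sequenced with strand kept, was compared between 3 groups. The DMSO siNT group (n = 5) received vehicle and a non-targeting siRNA, the 4OHT siNT group (n = 6) received 4OHT and a non-targeting siRNA, and the 4OHT siSMARCA4 group (n = 6) received 4OHT and siRNA against SMARCA4, the catalytic ATPase of many SWI/SNF chromatin remodellers. All groups carry ER:RAS, siRNA was delivered the day before 4OHT or vehicle, and RNA was taken at day 7. No group combined vehicle with SMARCA4 siRNA, so the effect of SMARCA4 knockdown was measured in 4OHT-treated cells only.

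The sample names carry a number after the name of the siRNA (2 or 4, called the siRNA number here) and a tag, V or VM, whose meanings are not given in the sources used here. All 6 4OHT siNT libraries were VM, as were 3 of 5 DMSO siNT and 3 of 6 4OHT siSMARCA4 libraries. The labels do not state that libraries of a group came from separate cultures, so each p-value measures only the spread between these libraries.

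An ERVK provirus is the genomic copy of a retrovirus that once infected the germ line. When complete, it has a pair of LTRs around an internal part that encodes the viral proteins Gag, Pro, Pol and Env. Most copies have lost the internal part by recombination and survive as a solo LTR, which can still hold promoter and polyadenylation signals. The families are numbered HML for human MMTV-like. HML-2 (internal part HERVK-int, LTRs named LTR5) is the youngest, and some of its copies keep long open reading frames. In most somatic cells such elements are held silent by DNA methylation and by histone H3 lysine 9 methylation, which zinc-finger proteins direct through TRIM28 and SETDB1.

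The LTR sequences below belong to LTR13 elements that rose with 4OHT, the LTRs with the largest rises among those described here. Each is read 5′ to 3′ on the element's own strand from GRCh38, with a motif and its surroundings. In the first the capitals mark TATAAA, the core letters of a TATA box. It lies in the LTR13 on chromosome 4 that had no count in DMSO (minus strand, chr4:73666325-73666444).
LTR13, chromosome 4: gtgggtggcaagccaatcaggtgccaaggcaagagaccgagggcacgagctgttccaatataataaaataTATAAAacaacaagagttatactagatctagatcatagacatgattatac

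The TATAAA of this LTR13 begins at base 72 of the element. TATAAA, searched on the element's own strand, was present in 34.2% of the 7892 ERVK LTRs whose strand could be inferred. The share was 82.8% in LTR5A (n = 325), 54.9% in LTR5_Hs (n = 577) and 68.1% in LTR13 (n = 433). Of the LTRs called higher with 4OHT, 4 of 10 held it, and of those called lower 9 of 12, against 46.2% of the 78 tested LTRs with a known strand. A further window is shown for TGANTCA, the letters of a site for AP-1, a factor of the RAS pathway. It was taken from an LTR13 that rose with 4OHT (minus strand, chr17:43350927-43351047), with the match in capitals.
LTR13, chromosome 17: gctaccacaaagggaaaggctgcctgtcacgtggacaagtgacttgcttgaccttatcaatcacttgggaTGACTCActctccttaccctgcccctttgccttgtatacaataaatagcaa

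TGANTCA is its own reverse complement. It was present in 12.9% of all oriented ERVK LTRs, in 52.0% of LTR13, in 3.08% of LTR5A and in 3.64% of LTR5_Hs. Of the LTRs called with 4OHT, 2 of 10 higher and 1 of 12 lower held it, against 12 of the 78 tested. These matches describe the letters in the windows and say nothing of binding.

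Library totals ran from 39109479 to 68978119 counts. CPM stands for counts per 1000000 counts of the library. It was scaled by TMM for genes, single loci and subfamilies, and left unscaled for other sums of loci. SMARCA4 stood at 263 ± 15.5 CPM (mean ± SD, n = 6) in 4OHT siNT, at 86.7 ± 22.2 CPM in 4OHT siSMARCA4 (n = 6) and at 208 ± 20.3 CPM in DMSO siNT (n = 5). The 4OHT groups did not overlap (log2 change −1.60, SE 0.126, adjusted p = 2.67e-07 by edgeR). The mRNA was therefore reduced and not absent. Of 11 fibroblast marker genes, 8 were lower and 1 higher with 4OHT, and 8 were lower with knockdown. Over all genes tested, 32.2% were lower and 22.0% higher with 4OHT, and 12.9% were lower with knockdown. The summed level of the fibroblast markers fell from 23806–29499 CPM in DMSO to 13180–17665 CPM in 4OHT siNT and 7622–10738 CPM in 4OHT siSMARCA4. Summed pluripotent markers stayed at or under 0.371 CPM in all 17 libraries. Endothelial markers summed to 0.903–2.08 CPM in DMSO, 3.82–5.93 in 4OHT siNT and 2.04–4.35 in 4OHT siSMARCA4, epithelial markers to 107–144, 66.1–80.7 and 35.0–57.3 CPM with KRT5 at 0, and immune markers to at most 30.4 CPM in every library. The part of these shifts in the ERVK results was not tested. In such bulk RNA, fewer cells that express a locus and less RNA per cell cannot be told apart.

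ERVK loci gave little RNA in any group. Their counts summed to 83.3 ± 6.34 CPM in DMSO siNT (SD, n = 5, range 77.7–93.9), 76.7 ± 5.0 in 4OHT siNT (n = 6, 71.0–83.3) and 86.6 ± 4.93 in 4OHT siSMARCA4 (n = 6, 78.1–92.7). The ranges of all 3 groups overlap. ERVK made up 0.465–0.580% of each library's repeat counts, from 2778 to 5947 counts over 483 to 826 loci. The mean share was 0.541% in DMSO siNT, 0.530% in 4OHT siNT and 0.500% in 4OHT siSMARCA4, so the order of the 4OHT groups turned with the scale. Per 1000 annotated loci, the level was 8.6 CPM in DMSO, 7.92 in 4OHT siNT and 8.94 in 4OHT siSMARCA4. The other LTR families were lower by this measure in all 3 groups, at 3.14, 3.31 and 3.68 CPM for ERV1, 1.53, 1.69 and 1.78 for ERVL and 1.72, 1.82 and 2.01 for ERVL-MaLR.

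The signal came from few loci. The most abundant locus held 5.55% of all ERVK counts, the top 10 held 31.7% and the top 100 held 69.5%. HML-2 held 47.9%, HML-8 (MER11 LTRs) 17%, HML-4 (HERVK13-int and LTR13) 12.4%, HML-3 (HERVK9-int and MER9 LTRs) 8.30% and HML-6 (HERVK3-int and LTR3) 7.24%. HML-5, HML-1, HML-10, HML-9 and HML-7 held 2.81%, 2.20%, 0.743%, 0.695% and 0.680%.

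With 4OHT the families did not move together. HML-2 stood at 43.5 ± 1.39 CPM in DMSO (range 41.9–45.1), at 35.5 ± 1.78 in 4OHT siNT (33.6–38.4) and at 39.7 ± 1.91 in 4OHT siSMARCA4 (37.7–43.1). Every 4OHT siNT library lay below every DMSO library. HML-6 stood at 4.32 ± 0.454 CPM in DMSO (3.69–4.81), at 6.23 ± 0.861 in 4OHT siNT (5.35–7.50) and at 7.03 ± 0.814 in 4OHT siSMARCA4 (5.89–8.10), and every 4OHT library lay above every DMSO library. The means of HML-8 were 13.9, 12.9 and 15 CPM in the same order, those of HML-4 were 9.79, 9.69 and 11.0, and those of HML-3 were 5.84, 6.90 and 7.61. In CPM of the library total the mean of every family was higher in 4OHT siSMARCA4 than in 4OHT siNT. The log2 ratios of the means ran from 0.0084 (HML-7) to 0.37 (HML-1). As a share of repeat counts, HML-2 was at 0.284 ± 0.0314% in DMSO, 0.245 ± 0.0112% in 4OHT siNT and 0.230 ± 0.0158% in 4OHT siSMARCA4 with overlap, and HML-6 at 0.0282 ± 0.00399%, 0.0430 ± 0.00548% and 0.0405 ± 0.00379%, so that the order of the 4OHT groups turned with the scale for both. These sums were not tested.

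**Figure D1:**
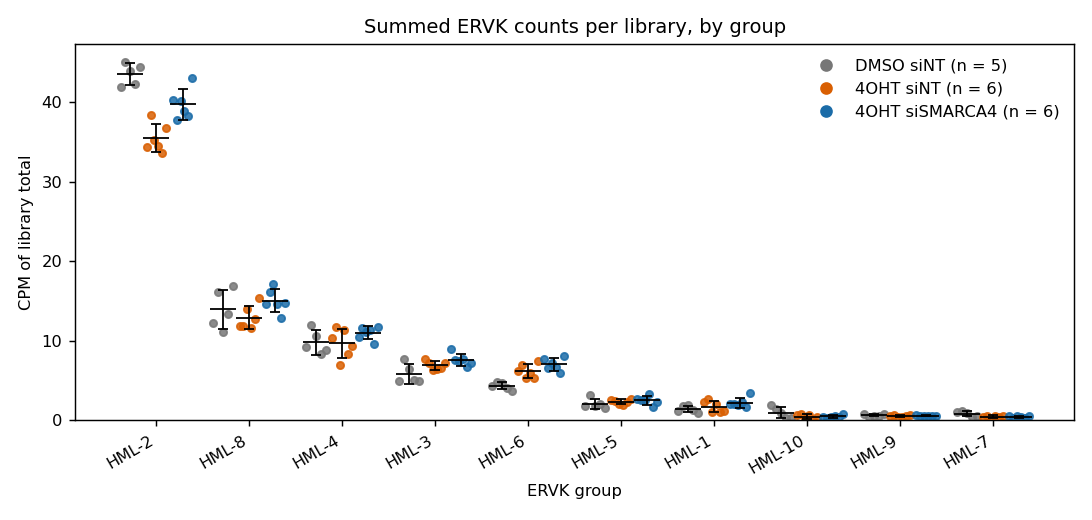
Summed level of each HML family in CPM of the library total (vertical axis), by group; each dot is a library and the bars are the mean ± SD (DMSO siNT n = 5, 4OHT siNT n = 6, 4OHT siSMARCA4 n = 6). HML-2 lies at 33.6–38.4 CPM in 4OHT siNT, below 41.9–45.1 CPM in DMSO siNT, whereas HML-6 lies at 5.35–7.50 CPM against 3.69–4.81 CPM.

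With 4OHT, single ERVK loci both rose and fell. Comparing 4OHT siNT with DMSO siNT asks which elements change when RAS is activated, and 34 of the 107 tested loci passed (31.8%), 19 higher and 15 lower, against 27.4% of all 13026 repeat loci tested. The median log2 fold change was −0.07 over the ERVK loci and 0.16 over all repeat loci. Scaled on repeat counts alone, the medians were −0.24 and −0.00, with 16 ERVK loci higher and 18 lower. Among siRNA number 2 libraries 7 were higher and 12 lower, and among number 4 libraries 15 were higher and 9 lower. For 23 of the 34, 13 higher and 10 lower, the libraries of the 2 groups did not overlap. The called loci that rose were 9 internal fragments and 10 LTRs, and those that fell were 3 internal fragments and 12 LTRs. For 12 of the 19 higher loci every DMSO library was under the filter's level of 0.188 CPM, and for 6 of the 15 lower loci every 4OHT siNT library was. A locus that passed only through the group in which it is high had to differ, so the count is a description, and the p-values of such loci lend their direction no support of their own. Of the rises described next these are the loci on chromosomes 3, 4, 5 and 17, LTR5A on chromosome 1 and the MER9a2 on chromosome 13. Of the falls they are HERVK-int on chromosome 8, LTR5_Hs at chr3:101691893-101692861 and the LTR13 elements.

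By family, HML-2 had 3 loci higher and 7 lower of 41 tested, HML-4 5 higher and 4 lower of 23, HML-3 4 higher and 2 lower of 12, HML-6 3 higher and 1 lower of 6, HML-8 2 higher of 16, HML-1 2 higher of 3, and HML-7 1 lower of 1. In the other LTR families 37.0% (ERV1), 31.6% (ERVL) and 32.8% (ERVL-MaLR) of tested loci were called.

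**Figure D2:**
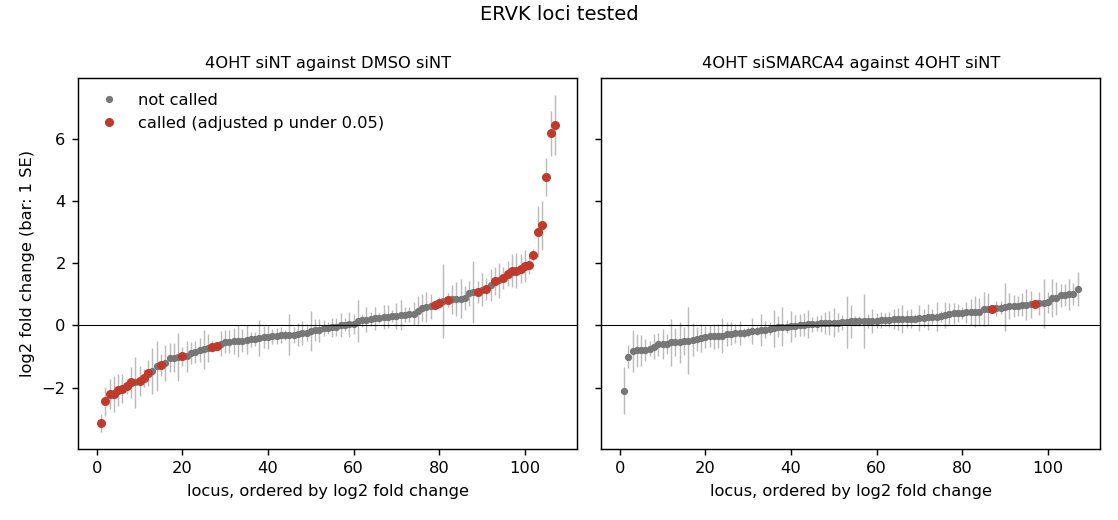
The 107 tested ERVK loci ranked by log2 fold change (vertical axis, ±1 SE), for 4OHT against DMSO in siNT and for siSMARCA4 against siNT in 4OHT; called loci (edgeR, Benjamini-Hochberg adjusted p under 0.05) are in red. With 4OHT 19 loci are called higher and 15 lower, and with SMARCA4 knockdown 2 are called, both higher.

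The largest rises were in HML-4, in a provirus fragment on chromosome 4 with no count in any DMSO library. Its HERVK13-int (chr4:73666446-73670863, minus strand, outside annotated genes) held 0 counts over the 5 DMSO libraries, 63 over the 6 4OHT siNT libraries and 74 over the 6 4OHT siSMARCA4 libraries. The lowest, median and highest 4OHT siNT values were 0.0757, 0.182 and 0.344 CPM, and those of 4OHT siSMARCA4 were 0.0784, 0.169 and 0.391 CPM. All 12 libraries with 4OHT thus lay above all DMSO libraries. Set against a floor of 3 counts over the DMSO group, the rise was at least 18.1-fold. The LTR13 directly beside it (chr4:73665456-73666445, minus strand), the 3′ LTR whose sequence is given above, had 0, 51 and 54 counts in the 3 groups and rose at least 14.7-fold. The LTR13 on the other side (chr4:73670865-73671857) had 2 counts in all libraries. CXCL8, a neutrophil chemokine and a component of the senescence-associated secretory phenotype, starts 69656 bp from the internal fragment and 74074 bp from the LTR. It was picked out after its values were seen, and stood at 4.32 ± 1.18, 1519 ± 364 and 3250 ± 801 CPM in the 3 groups. Other genes around the provirus are not given, and a link between it and CXCL8 was not tested.

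Another LTR13, the one shown with an AP-1 match (chr17:43350760-43351750, minus strand, in an intron of LINC00910 on the same strand), had 0, 0.0411, 0, 0 and 0.0354 CPM in DMSO and 0.0508, 0.132 and 0.362 CPM (lowest, median, highest) in 4OHT siNT. The groups did not overlap, but the DMSO values amount to 4 counts in all (log2 change 3.22, SE 0.788). LINC00910 itself did not pass (log2 change 0.16, adjusted p = 0.656 by edgeR).

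In HML-3, HERVK9-int on chromosome 13 (chr13:19626836-19630711, plus strand, 2948 bp from MPHOSPH8 and outside annotated genes) had 0.278, 0.246, 0.410, 0.267 and 0.248 CPM in DMSO and 1.12, 1.41 and 1.60 CPM (lowest, median, highest) in 4OHT siNT. Every 4OHT siNT library lay above every DMSO library, a 4.81-fold rise (log2 change 2.26, SE 0.196, adjusted p = 9.15e-08 by edgeR). In 4OHT siSMARCA4 it had 1.26, 1.51 and 1.92 CPM. The MER9a2 LTR that follows it (chr13:19630712-19631229) rose as well, from 0.0535–0.103 to 0.129–0.397 CPM (log2 change 1.67, SE 0.393, adjusted p = 0.00328 by edgeR). MPHOSPH8, a reader of histone H3 lysine 9 methylation in the HUSH silencing complex, stood at 67.3 CPM in DMSO and 73.2 in 4OHT siNT and did not pass (log2 change 0.12, adjusted p = 0.612 by edgeR). A second HERVK9-int (chr5:242655-246678) rose from 0.111, 0.123, 0.0714, 0.103 and 0 CPM in DMSO to 0.203, 0.281 and 0.435 CPM (log2 change 1.83, SE 0.451, adjusted p = 0.00458 by edgeR).

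Of the 3 HML-2 loci that rose, LTR5A on chromosome 1 changed most (chr1:40471747-40472757, plus strand, outside genes). It had 0.130, 0.164, 0.161, 0.185 and 0.0531 CPM in DMSO, 0.344, 0.533 and 0.700 CPM in 4OHT siNT and 0.400, 0.503 and 0.765 CPM in 4OHT siSMARCA4. All 12 libraries with 4OHT lay above those with DMSO (log2 change 1.94, SE 0.300, adjusted p = 7.09e-05 by edgeR). In HML-1, HERVK14-int in ACAD9, a mitochondrial acyl-CoA dehydrogenase gene, rose from 0.0741, 0.0411, 0.0357, 0 and 0.106 CPM to 0.138, 0.158 and 0.297 CPM (chr3:128921196-128922058, log2 change 1.76, SE 0.531, adjusted p = 0.0182 by edgeR), while ACAD9 fell (log2 change −0.23, adjusted p = 0.00581 by edgeR).

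The largest fall was in an HML-2 LTR on chromosome 8. LTR5A at chr8:12565980-12567003 (plus strand) had 2.08, 2.05, 1.37, 1.15 and 1.58 CPM in DMSO, 0.0946, 0.184 and 0.293 CPM in 4OHT siNT and 0.140, 0.242 and 0.264 CPM in 4OHT siSMARCA4. Both 4OHT groups lay below every DMSO library, 8.75-fold lower in 4OHT siNT (log2 change −3.13, SE 0.292, adjusted p = 2.40e-07 by edgeR). A second LTR5A (chr8:8100098-8101124) fell from 1.13, 0.903, 1.45, 1.27 and 1.33 CPM to 0.228, 0.296 and 0.435 CPM (log2 change −1.96, SE 0.254, adjusted p = 1.08e-05 by edgeR). The HERVK-int fragment that adjoins it (chr8:8101127-8102011, minus strand) fell from 0.408, 0.636, 0.161, 0.535 and 0.461 CPM to 0.0186, 0.0854 and 0.129 CPM (log2 change −2.44, SE 0.475, adjusted p = 6.69e-04 by edgeR). Both lie antisense in an intron of ENSG00000284606. The LTR has a copy of 99.7% identity elsewhere on chromosome 8 and the fragment one of 99.4%, so the counts of both could be split between copies.

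LTR5_Hs elements on chromosome 3 fell too. The element at chr3:196944080-196945028, 537 bp from NCBP2AS2, had 0.964, 0.842, 0.731, 1.19 and 1.63 CPM in DMSO, and 0.127, 0.395 and 0.435 CPM in 4OHT siNT, without overlap (log2 change −1.68, SE 0.286, adjusted p = 1.82e-04 by edgeR). The second is the 5′ LTR of a provirus (chr3:101691893-101692861, plus strand) and fell from 0.222, 0.205, 0.250, 0.308 and 0.159 CPM to 0, 0.0537 and 0.0906 CPM (log2 change −2.08, SE 0.511, adjusted p = 0.00445 by edgeR). Within that provirus the 5′ LTR had 60, 16 and 32 counts over the DMSO siNT, 4OHT siNT and 4OHT siSMARCA4 groups, whereas the internal part had 107, 121 and 139 and the 3′ LTR 27, 33 and 35. The fall was thus seen in the counts of the 5′ LTR and not in those of the rest of the provirus.

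In HML-4, 3 LTR13 elements fell without overlap. LTR13 at chr19:43191200-43192195, 507 bp from PSG4, a pregnancy-specific glycoprotein gene, had 0.334, 0.534, 0.500, 0.370 and 0.390 CPM in DMSO and 0.0186, 0.0893 and 0.172 CPM in 4OHT siNT (log2 change −2.21, SE 0.476, adjusted p = 0.00159 by edgeR). PSG4 fell from 98.6 to 34.0 CPM (log2 change −1.54, adjusted p = 2.07e-08 by edgeR). LTR13 at chr14:30562170-30563147, in G2E3, fell from 0.241, 0.349, 0.214, 0.350 and 0.425 CPM to 0.0186, 0.0685 and 0.127 CPM (log2 change −2.03, SE 0.479, adjusted p = 0.00336 by edgeR), with G2E3 at a log2 fold change of −0.41 (edgeR adjusted p = 7.72e-04). LTR13 at chr12:6741888-6742530 had 0.259, 0.164, 0.250, 0.535 and 0.230 CPM in DMSO and 0.0517, 0.0987 and 0.145 CPM in 4OHT siNT (log2 change −1.53, SE 0.406, adjusted p = 0.00782 by edgeR). Within libraries of a single siRNA number, which are fewer, further named calls were lost. Among number 2 libraries these were HERVK9-int on chromosome 5 (1.21, edgeR adjusted p = 0.0972), LTR13 on chromosome 14 (−1.59, edgeR adjusted p = 0.140) and LTR5_Hs at chr3:101691893-101692861 (−1.86, edgeR adjusted p = 0.0651). Among number 4 libraries they were LTR13 on chromosome 19 (−1.71, edgeR adjusted p = 0.142), LTR13 on chromosome 12 (−1.72, edgeR adjusted p = 0.0860) and HERVK14-int in ACAD9 (1.53, edgeR adjusted p = 0.287).

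**Figure D3:**
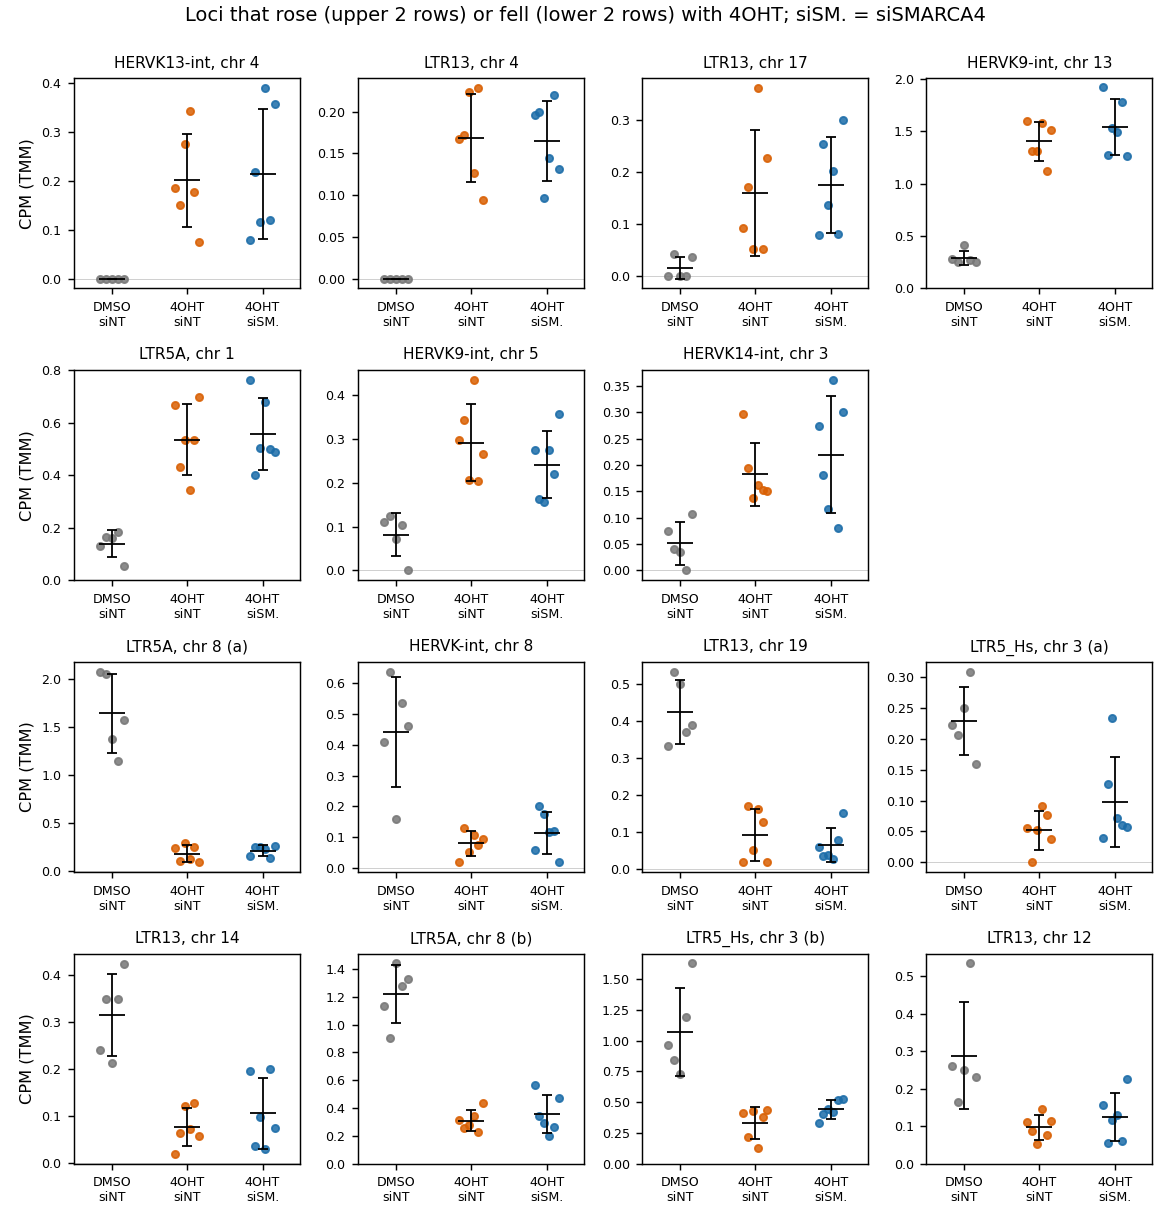
Level of 15 ERVK loci in CPM (vertical axes include 0), 1 dot per library and mean ± SD by group; the upper 7 panels are large rises with 4OHT and the lower 8 the largest falls, among called loci whose 2 groups did not overlap, and a and b mark loci of a subfamily on the same chromosome. LTR5A on chromosome 8 falls from 1.15–2.08 CPM in DMSO siNT to 0.0946–0.293 CPM in 4OHT siNT, and both chromosome 4 panels are at 0 in DMSO siNT.

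Summed over loci, 6 of the 36 tested ERVK subfamilies were called with 4OHT, 5 higher and 1 lower, against 16.9% of all 1026 subfamilies tested. HERVK3-int rose from 3.00, 3.40, 3.07, 3.17 and 2.62 CPM in DMSO to 4.37, 5.31 and 6.23 CPM in 4OHT siNT, without overlap (log2 change 0.78, SE 0.124, adjusted p = 1.51e-04 by edgeR). HERVK9-int rose from 2.20, 3.08, 3.21, 2.56 and 1.91 CPM to 3.50, 4.29 and 4.67 CPM (log2 change 0.69, SE 0.141, adjusted p = 0.00177 by edgeR), and HERVK13-int from 0.506, 0.816, 0.364, 0.387 and 0.252 CPM to 0.680, 1.10 and 1.45 CPM with overlap (log2 change 1.24, SE 0.289, adjusted p = 0.00505 by edgeR). MER11B (log2 change 0.42, SE 0.133, adjusted p = 0.0383 by edgeR) and MER9a2 (0.74, SE 0.250, adjusted p = 0.0497 by edgeR) were nearer the threshold. MER11B kept its call only without DMSO siNT 2-2V, 4OHT siNT 4-1VM or 4OHT siNT 2-2VM, and lost it without any of the other 8 libraries (0.35 to 0.44, edgeR adjusted p = 0.0501 to 0.123). MER9a2 kept it only without DMSO siNT 4-3VM, 4OHT siNT 4-1VM or 4OHT siNT 4-2VM, and lost it without any of the other 8 (0.62 to 0.76, edgeR adjusted p = 0.0802 to 0.148). Without its most abundant locus, HERVK9-int stood at 0.24 (edgeR adjusted p = 0.342), MER11B at 0.11 (edgeR adjusted p = 0.637) and MER9a2 at 0.26 (edgeR adjusted p = 0.615). MER11B also lost its call with scaling on repeat counts (0.32, edgeR adjusted p = 0.128) and within VM libraries (0.40, edgeR adjusted p = 0.0968) or either siRNA number (0.42 and 0.33, edgeR adjusted p = 0.208 and 0.330). MER9a2 also lost it by DESeq2 (0.73, adjusted p = 0.0520), with scaling on repeat counts (0.63, edgeR adjusted p = 0.146), with V or VM as a covariate (0.64, edgeR adjusted p = 0.0947), within VM libraries (0.48, edgeR adjusted p = 0.247) and within number 4 libraries (0.22, edgeR adjusted p = 0.738). Among siRNA number 2 libraries, HERVK13-int stood at 0.53 (edgeR adjusted p = 0.339) and HERVK9-int at 0.43 (edgeR adjusted p = 0.194).

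Among the HML-2 subfamilies, LTR5A was the one that changed. It had 13, 13.4, 12.4, 11.2 and 15.9 CPM in DMSO, 8.29, 8.98 and 9.52 CPM (lowest, median, highest) in 4OHT siNT and 9.63, 11.6 and 12.1 CPM in 4OHT siSMARCA4. It fell with 4OHT (log2 change −0.56, SE 0.0898, adjusted p = 1.56e-04 by edgeR), and a single locus held 40.3% of its counts. LTR5_Hs, the LTR of the youngest copies, had 17.6, 18.0, 19.2, 19.1 and 20.4 CPM in DMSO, 17.8, 18.6 and 20.3 in 4OHT siNT and 18.6, 19.1 and 21.2 in 4OHT siSMARCA4, with overlap throughout (log2 fold change −0.00 with 4OHT, edgeR adjusted p = 0.984, and 0.05 with knockdown, edgeR adjusted p = 0.589).

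HERVK-int, the internal part of HML-2, had 4.59, 5.75, 6.73, 8.01 and 4.61 CPM in DMSO, 4.02, 5.18 and 5.97 in 4OHT siNT and 3.57, 4.66 and 6.01 in 4OHT siSMARCA4. The groups overlapped (log2 change −0.22, SE 0.172, adjusted p = 0.444 by edgeR with 4OHT, and −0.10, SE 0.165, adjusted p = 0.711 by edgeR with knockdown). LTR5B had 3.80, 4.22, 2.55, 2.38 and 3.25 CPM in DMSO, 2.76, 3.39 and 3.91 in 4OHT siNT and 3.12, 3.94 and 4.60 in 4OHT siSMARCA4, and did not pass in either comparison (0.04 and 0.24, edgeR adjusted p = 0.926 and 0.256). LTR5, with 68 loci the smallest of these subfamilies, had 0.680, 0.378, 0.815, 0.232 and 0.268 CPM in DMSO, 0.265, 0.419 and 0.835 in 4OHT siNT and 0.235, 0.430 and 0.572 in 4OHT siSMARCA4, and did not pass either (0.04 and −0.19, edgeR adjusted p = 0.966 and 0.743).

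**Figure D4:**
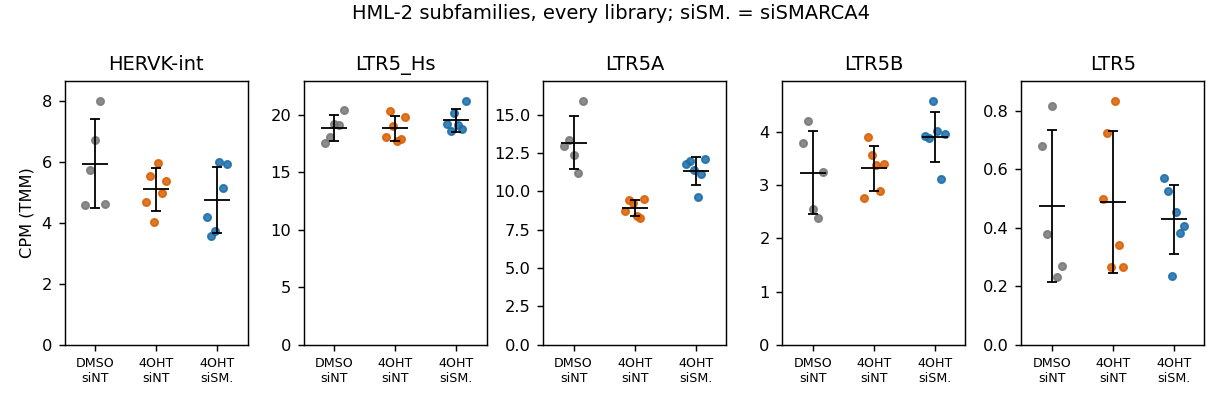
Summed level of the HML-2 subfamilies HERVK-int, LTR5_Hs, LTR5A, LTR5B and LTR5 in CPM (vertical axes include 0), 1 dot per library and mean ± SD by group (n = 5, 6 and 6). LTR5A stands at 11.2–15.9 CPM in DMSO siNT, 8.29–9.52 CPM in 4OHT siNT and 9.63–12.1 CPM in 4OHT siSMARCA4, and the groups of the other 4 overlap.

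SMARCA4 knockdown moved few ERVK loci. Comparing 4OHT siSMARCA4 with 4OHT siNT asks whether loss of this remodeller alters ERVK RNA in senescent cells. It uses the same 4OHT siNT libraries as the 4OHT comparison, so the values of the 2 comparisons are given side by side and not tested against each other. Of 107 loci 2 passed, both higher, against 6.16% of all 13026 repeat loci tested, and 13 had an unadjusted p under 0.05. By DESeq2 4 loci passed, 2 higher and 2 lower. Scaling on repeat counts alone lowered the median log2 fold change of all repeat loci from 0.14 to −0.01 and of the ERVK loci from 0.13 to −0.04, and 1 ERVK locus then passed, lower. Of the 19 loci that rose with 4OHT 1 was called with knockdown, and of the 15 that fell 1 was. The knockdown log2 fold changes ran from −0.68 to 0.98 over the 19 and from −2.09 to 1.00 over the 15.

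The first of the 2 is LTR5A in SVIL-AS1, an antisense RNA gene beside the supervillin gene (chr10:29426711-29427740, plus strand, in an intron on the same strand). It had 5.21, 5.26, 4.89, 4.71 and 6.75 CPM in DMSO, 2.93, 3.32 and 3.89 CPM in 4OHT siNT and 3.37, 5.09 and 5.46 CPM in 4OHT siSMARCA4. It fell with 4OHT without overlap (log2 change −0.67, SE 0.136, adjusted p = 9.16e-04 by edgeR) and was higher with knockdown (0.53, SE 0.131, adjusted p = 0.0242 by edgeR). Of the 6 knockdown libraries, 5 lay at 4.75–5.46 CPM, above every 4OHT siNT library, and 4-2V lay at 3.37 CPM, within them. Without 4-2V the log2 fold change was 0.60 (edgeR adjusted p = 0.0109). The same library had the highest SMARCA4 level of its group, 125 CPM, and the part of this in the result was not tested. SVIL-AS1 as a whole did not pass in either comparison (−0.02 with knockdown, edgeR adjusted p = 0.898, and 0.19 with 4OHT, edgeR adjusted p = 0.0980).

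The second is HERVK3-int of HML-6 (chr19:58313591-58314344, plus strand, in an intron of ERVK3-1, with annotated genes on both strands). It had 0.778, 0.575, 0.714, 0.576 and 0.921 CPM in DMSO, 0.946, 1.19 and 1.49 CPM in 4OHT siNT and 1.56, 1.96 and 2.26 CPM in 4OHT siSMARCA4. The 3 groups formed 3 steps with no overlap (0.73, SE 0.183, adjusted p = 0.00540 by edgeR with 4OHT, and 0.69, SE 0.168, adjusted p = 0.0240 by edgeR with knockdown). ERVK3-1, an endogenous retroviral gene of this group, stood at 11.2, 18.0 and 17.9 CPM, at a log2 fold change of 0.68 with 4OHT and −0.01 with knockdown. The HERVK3-int fragment directly before it (chr19:58311249-58313279) was at 0.82 with 4OHT and 0.19 with knockdown (edgeR adjusted p = 0.657).

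Both calls were near the threshold. LTR5A in SVIL-AS1 lost its call without 4OHT siNT 2-1VM or 4-2VM, or without 4OHT siSMARCA4 2-1VM, 2-3V, 2-3VM or 4-2VM (log2 fold change 0.47 to 0.52, edgeR adjusted p = 0.0510 to 0.0735). HERVK3-int lost it without 4OHT siNT 2-1VM, 4-1VM or 2-3VM, or without 4OHT siSMARCA4 2-1VM, 2-3V or 2-3VM (0.62 to 0.68, edgeR adjusted p = 0.0508 to 0.0626). With scaling on repeat counts the 2 loci stood at 0.38 and 0.53 (edgeR adjusted p = 0.144 and 0.0997). Within the VM libraries, they stood at 0.68 and 0.72 (edgeR adjusted p = 0.0207 and 0.0631). Repeat loci far from genes and with few counts each summed to 47.3–118 CPM in DMSO, 35.7–68.4 in 4OHT siNT and 70.4–197 in 4OHT siSMARCA4. With their level as a covariate the loci stood at 0.36 and 0.54 (edgeR adjusted p = 0.393 and 0.367). Within libraries of a single siRNA number neither knockdown call was kept. The 4OHT calls of the same loci were lost among siRNA number 4 libraries (−0.80 and 0.66, edgeR adjusted p = 0.0522 and 0.176).

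Of the 36 subfamilies, LTR5A (log2 change 0.34, SE 0.0862, adjusted p = 0.0120 by edgeR) and MER9a2 (0.65, SE 0.226, adjusted p = 0.0481 by edgeR) were called higher with knockdown, against 20.4% of all 1026 subfamilies. All 6 knockdown libraries of LTR5A lay above those of 4OHT siNT, at 9.63–12.1 against 8.29–9.52 CPM. Without the SVIL-AS1 locus LTR5A stood at 0.22 (edgeR adjusted p = 0.106), and with scaling on repeat counts at 0.12 (edgeR adjusted p = 0.635). With the covariate of sparse counts it stood at 0.22 (edgeR adjusted p = 0.359), and among siRNA number 4 libraries at 0.30 (edgeR adjusted p = 0.277). MER9a2 had 0.436, 0.682 and 0.818 CPM in 4OHT siNT and 0.644, 0.965 and 1.41 CPM in 4OHT siSMARCA4, with overlap. It kept its call only without 4OHT siNT 2-2VM, 4OHT siSMARCA4 4-2V or 4OHT siSMARCA4 4-2VM, and lost it without any of the other 9 libraries (0.53 to 0.71, edgeR adjusted p = 0.0565 to 0.121). It also lost it with scaling on repeat counts (0.42, edgeR adjusted p = 0.382), with the covariate of sparse counts (0.30, edgeR adjusted p = 0.655), with V or VM as a covariate (0.81, edgeR adjusted p = 0.0611), within VM libraries (0.70, edgeR adjusted p = 0.0762) and within either siRNA number (0.75 and 0.60, edgeR adjusted p = 0.101 and 0.279).

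The effect of the 2 siRNA numbers was also compared. The log2 fold change of LTR5A in SVIL-AS1 was 0.61 among number 2 libraries and 0.45 among number 4 libraries (edgeR adjusted p = 0.110 and 0.286). That of HERVK3-int was 0.89 and 0.46 (edgeR adjusted p = 0.0651 and 0.377), so neither locus passed within either number. The edgeR adjusted p of the difference was 0.980 for LTR5A and 0.919 for HERVK3-int, which does not show that the 2 numbers act alike. The test of the difference was passed by 0 ERVK loci with edgeR (5 had p under 0.05 before adjustment) and by 0 with DESeq2 (4 had p under 0.05 before adjustment).

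Of the 10 most abundant ERVK loci, 3 were called with 4OHT and 1 with knockdown, against 27.4% and 6.16% of all repeat loci tested. Per kb of element the SVIL-AS1 LTR5A led with 4.35 CPM per kb over all libraries, followed by MER11C at chr1:204346639-204347773 with 4.04 and LTR5_Hs at chr1:145414873-145415845, in an intron of NBPF20, with 3.48. MER11C had 4.13, 5.46, 3.43, 5.28 and 8.33 CPM in DMSO, 2.71, 3.93 and 6.22 CPM in 4OHT siNT and 2.58, 4.7 and 5.64 CPM in 4OHT siSMARCA4, and the groups overlapped (−0.34 with 4OHT, edgeR adjusted p = 0.343, and 0.04 with knockdown). Of its bases 42.6% lie in an exon of the ribosomal protein pseudogene RPL21P19. LTR5_Hs in NBPF20 stood at 0.24 and −0.17, LTR5_Hs at chr20:35262124-35263091 at 0.03 and 0.41, LTR5_Hs at chr1:149092877-149093849 in NBPF9 at 0.17 and −0.10, and LTR5A at chr8:144145715-144146714 at −0.07 and 0.30, and none of these passed. LTR5_Hs in an intron of NBPF15 (chr1:144450894-144451866) rose with 4OHT from 1.91, 1.83, 1.71, 1.93 and 1.75 CPM to 2.23, 2.73 and 4.01 CPM (log2 change 0.66, SE 0.167, adjusted p = 0.00529 by edgeR), as did NBPF15 (0.40, edgeR adjusted p = 0.00378). The locus stood at 0.39 among siRNA number 2 libraries (edgeR adjusted p = 0.168) and at 0.50 with scaling on repeat counts (edgeR adjusted p = 0.0520). The NBPF genes are near-identical copies on chromosome 1, which leaves the assignment of these counts uncertain. Of the 107 tested loci, 18 had a copy of at least 99% identity over at least 90% of their length, 15 of them in HML-2. Called with 4OHT were 3 of the 18, against 27.4% of all repeat loci tested.

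The provirus with the most counts was an HML-2 element on chromosome 1, minus strand. Its 3′ LTR (LTR5_Hs, chr1:155626666-155627633) held 2484 counts and its internal parts (HERVK-int at chr1:155627643-155629344 and chr1:155629344-155634870) 1262 and 1725. Its 5′ LTR (chr1:155634878-155635845) held 37, of which 1 was in DMSO siNT, 5 in 4OHT siNT and 31 in 4OHT siSMARCA4. This 5′ LTR did not pass the filter and was not tested. It is 99.8% identical to the 3′ LTR, so counts could be split between these copies. The 3′ LTR fell with 4OHT from 3.15, 2.90, 3.44, 4.07 and 4.73 CPM to 1.65, 2.40 and 2.89 CPM (log2 change −0.68, SE 0.168, adjusted p = 0.00485 by edgeR), and had 2.09, 2.43 and 3.11 CPM in 4OHT siSMARCA4. Among siRNA number 2 libraries it stood at −0.29 (edgeR adjusted p = 0.256). Of its bases 90.8% lie in an exon of ENSG00000287839, which was at the same log2 fold change, −0.68. The internal parts did not pass (−0.42 and −0.05 with 4OHT, 0.15 and −0.26 with knockdown). They hold stop-free stretches of 1698 and 2622 bases on their own strand. Per kb, the 3′ LTR stood at 2.86 CPM and the longer internal part at 0.346 CPM.

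Long stop-free stretches were also kept by internal parts with few counts. HERVK-int of the chromosome 3 provirus (chr3:101692862-101700046) has one of 2355 bases and stood at −0.04 with 4OHT and 0.07 with knockdown. The tandem HERVK-int on chromosome 7 (chr7:4583400-4590929 and chr7:4591898-4599422) have 2868 bases each. They are 99.85% identical, so their counts could be exchanged. They held 126, 105 and 65 counts and 64, 56 and 86 counts over the 3 groups, and neither passed.

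Elements in exons gave the most RNA per locus. Loci in an exon on the same strand (342) held 21.3% of the ERVK counts, or 46.3 counts per locus, against 26.2 per locus for those antisense in an exon and 35.3 for those in exons of genes on both strands. Those in an intron on the same strand (1247) held 26.9%, or 16.0 per locus, those antisense in an intron (2265) 11.6%, or 3.80 per locus, and those outside genes (4906) 20.7%, or 3.13 per locus. LTRs without an internal part beside them held 68.5% of the counts. Antisense intronic loci summed to 11.4 CPM in DMSO, 7.65 in 4OHT siNT and 9.80 in 4OHT siSMARCA4. Across loci, the log2 fold changes of element and host gene had a Pearson r of 0.41 in exons (n = 30) and 0.36 in introns (n = 39) with 4OHT, and of 0.52 and 0.56 with knockdown. The Spearman rank correlations were 0.60 and 0.21 with 4OHT, and 0.53 and 0.58 with knockdown. These points share libraries and, in part, reads, and give a description only. Among the called loci whose host gene was tested, 9 lay in exons, where 7 host genes were called with 4OHT and 6 moved the same way, and 11 lay in introns, where 7 host genes were called and 5 moved the same way, against 54.2% of all genes called with 4OHT.

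**Figure D5:**
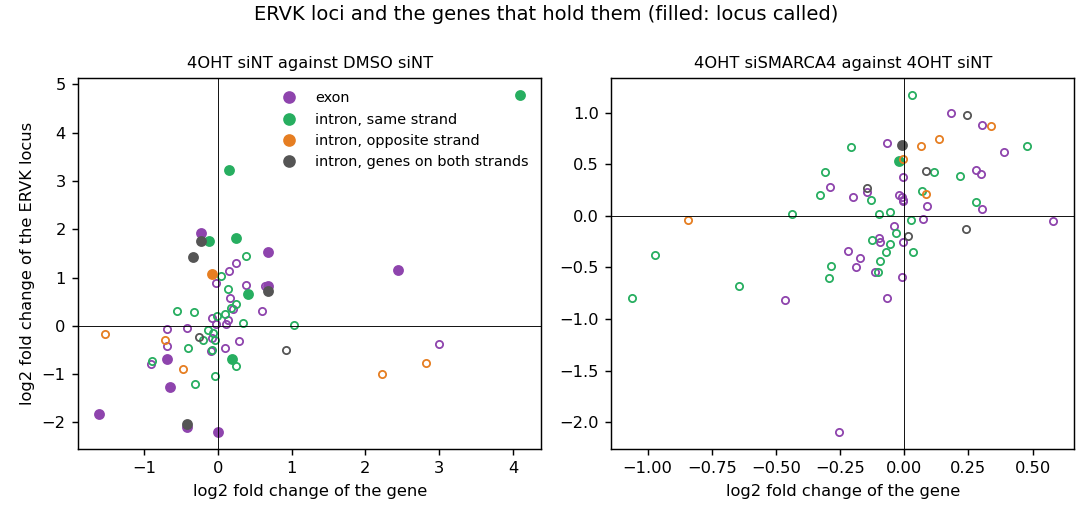
Log2 fold change of each tested ERVK locus (vertical axis) against that of the gene that holds it (horizontal axis), for 4OHT against DMSO and for siSMARCA4 against siNT; symbols give exon or intron and strand, and filled symbols are called loci. With 4OHT, Pearson r is 0.41 over 30 exonic and 0.36 over 39 intronic loci (Spearman 0.60 and 0.21), and the LTR13 in LINC00910 sits at 3.22 with its gene at 0.16.

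Genes that silence or restrict retroviral elements fell more than they rose with 4OHT. Of 44 tested, 24 were lower and 6 higher, with a median log2 fold change of −0.32 against −0.09 over all genes, of which 54.2% were called, 32.2% lower and 22.0% higher. Scaled on repeat counts, 30 were lower and 1 higher. The genes named next were called in the main scaling. All 6 higher genes are named, but only 6 of the 24 lower ones, all with falls larger than the median. Lower were LMNB1, a lamin lost in senescence (27 to 1.43 CPM, −4.24), APOBEC3B, a cytidine deaminase (9.99 to 0.373 CPM, −4.73), HELLS, a remodeller needed for DNA methylation (−2.68), UHRF1, which brings DNMT1 to hemimethylated DNA (48.4 to 16.0 CPM, −1.59), DNMT3B (−1.12) and CBX1 (−0.78). Higher were MORC2 (0.41) and DAXX (0.48), both silencing factors, SIRT6 (0.25), the RNA editor ADAR (0.43), and the zinc-finger genes ZNF417 (0.38) and ZNF587 (0.44). TRIM28 and SETDB1 were not called in either comparison (−0.13 and −0.03 with 4OHT, −0.10 and −0.04 with knockdown).

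With knockdown 10 of the 44 silencer genes were called, 4 higher and 6 lower, with a median of −0.04 against −0.02 over all genes, of which 23.3% were called, 12.9% lower and 10.5% higher. Scaled on repeat counts, 1 was higher and 15 lower. Higher in the main scaling were MORC3 (0.30), CBX3 (0.42), SIRT1 (0.25) and APOBEC3B (0.82). Lower were the DNA methyltransferases DNMT1 (−0.26) and DNMT3A (−0.34), the histone demethylase KDM1A (−0.29), the histone H3 lysine 9 methyltransferases EHMT1 (−0.25) and EHMT2 (−0.24), and BST2, which tethers budding virus (−1.81).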

How the data were processed

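The authors deposited expected counts: reads were trimmed with cutadapt 4.7, aligned to GRCh38 with HISAT2 2.2.1 and counted per gene and per repeat locus with TElocal, reverse-stranded, in the mode that shares multiply mapped reads among loci. This mode leaves the choice between near-identical copies uncertain and gives every copy of a repeat a count of its own. No library was normalized before deposit, and the 17 tables were used whole, with totals of 39109479 to 68978119 counts, a depth at which most ERVK loci had no count.

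The deposited counts were read as whole numbers, and no rounding was done here. Genes were joined with the repeat loci (or, in a second fit, with counts summed per subfamily), kept by filterByExpr (minimum count 10, minimum total 15), scaled by TMM (factors 0.948 to 1.05) and tested with edgeR 4.0.16 in R 4.3.3 (quasi-likelihood, 1 term per group, all 17 libraries). Benjamini-Hochberg adjustment ran over 13026 repeat loci, 1026 subfamilies and 19473 genes separately, with a call at an adjusted p under 0.05. The method was tested on simulated counts. Locus and gene values are TMM-scaled CPM, and sums over families are CPM of the library total. Groups followed the sample titles. Places come from the GENCODE 44 annotation, the strand of each element was inferred from its sequence, and copies were found with BLAST 2.17.0 and overlaps with bedtools 2.31.1. Of 1225 LTRs beside a stranded internal part, 97.7% were given its strand. Counting intervals were not used, and a group without counts was set to a floor of 3 counts.

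Named loci were, per comparison, the 8 largest called rises and falls without overlap between groups, the 10 most abundant loci, and the 5 most abundant of HERVK-int and of LTR5. Of these, 1 rise is not reported here. Loci and genes given beside them are their neighbours or hosts, apart from CXCL8, which was picked out after its values were seen. Members, lists and this rule were chosen with earlier results of these data known. Alternatives were DESeq2 1.42.0, other size factors, TMM from repeats, other filters, V or VM, siRNA number, a replicate block, a covariate of sparse counts far from genes and each library left out. Summing subfamilies without their top locus or without exonic loci was chosen after seeing the data.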

Additional observations from a re-analysis of the deposited data

Results flagged for a closer look

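Among the 123 sets of libraries of a group compared for the named loci, 7 had a library whose gap to its nearest neighbour passed Dixon's 95% limit, where chance flags about 1 in 20. DMSO siNT 4-3VM stood high in 3 LTR5 loci. LTR5A in SVIL-AS1 was at 6.75 CPM there, with the other DMSO libraries at 4.71–5.26 CPM. LTR5_Hs at chr20:35262124-35263091 was at 2.37 CPM (others 1.33–1.58), and LTR5A at chr8:144145715-144146714 at 2.11 CPM (others 1.15–1.40). The low library of LTR5A in SVIL-AS1 after knockdown was 4OHT siSMARCA4 4-2V, at 3.37 CPM with the others at 4.75–5.46 CPM. In DMSO siNT 4-2VM, LTR13 at chr12:6741888-6742530 was at 0.535 CPM (others 0.164–0.259). HERVK9-int on chromosome 13 was at 0.410 CPM in DMSO siNT 2-2VM (others 0.246–0.278). HERVK14-int in ACAD9 was at 0.297 CPM in 4OHT siNT 2-1VM (others 0.138–0.194).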

How the results depend on the processing

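Of the 29 called values of single loci and subfamilies checked here, 11 kept their call under every alternative that gave a value, and none turned direction. The MER9a2 locus on chromosome 13 was not among the 29. The 11 include both chromosome 4 loci, LTR13 on chromosome 17, LTR5A on chromosome 1 and HERVK-int on chromosome 8. These passed the filter only through the group in which they are high, so their kept calls lend no support of their own. HERVK13-int on chromosome 4 had a value under 20 alternatives and LTR13 on chromosome 17 under 19, against 23 for HERVK9-int on chromosome 13. HERVK14-int in ACAD9, which is not among the 11, had a value under 16. With no filter its 4OHT call was lost (1.76, edgeR adjusted p = 0.0534). The causes of the changes below were not tested. With knockdown, the count of ERVK loci (2 of 107) was 4 with DESeq2 (2 higher, 2 lower) and 1 with TMM from repeats (lower). With no filter it was 0 of 594 loci tested, of which 52 had an unadjusted p under 0.05 by edgeR. Among VM libraries it was 5 of 111 (3 higher, 2 lower). Among siRNA number 2 libraries it was 1 of 110 (lower). Among number 4 libraries it was 0 of 119 (4 at an unadjusted p under 0.05). With the sparse-count covariate it was 0 (5 at an unadjusted p under 0.05). With the replicate block it was 3 (2 higher, 1 lower), and with a library left out 0–3. The count of subfamilies (2) was 0 with TMM from repeats, the sparse-count covariate or number 4 libraries, and 1 with no filter, V or VM as covariate, VM libraries, number 2 libraries, the block or without the top locus, and 1–2 with a library left out. The count of silencer genes (10) was 16 with TMM from repeats, 1 among number 4 libraries and 1 with the sparse-count covariate, and 5–13 with a library left out. The SMARCA4 log2 fold change ran from −1.75 to −1.54 with a library left out. With 4OHT, the loci called (34) were 19 among number 2 libraries (7 higher, 12 lower) and 29–36 with a library left out, the subfamilies (6) were 3 without the top locus and 4–6, and the silencer genes (30) were 19 among number 4 libraries and 27–30. The log2 ratio of summed ERVK counts with knockdown (0.18) was −0.084 when scaled to repeat counts and 0.15–0.20 with a library left out, and that with 4OHT (−0.12) ran from −0.14 to −0.07.

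Some values that did not pass changed sign by more than 1 SE. With the sparse-count covariate the knockdown log2 fold change was −0.50 for MER11C on chromosome 1, 0.064 for LTR5_Hs in NBPF20, 0.44 for HERVK-int at chr1:155629344-155634870, 0.17 for HERVK-int at chr7:4583400-4590929, 0.23 for HERVK-int as a subfamily and 0.52 for LTR5. Among number 4 libraries it was −0.43 for MER11C and −0.21 for HERVK-int on chromosome 3, whose 4OHT value was 0.33 there, with −0.33 for LTR5_Hs on chromosome 20. Among number 2 libraries it was −0.22 for HERVK-int at chr1:155627643-155629344 and 0.31 for LTR5, and the 4OHT values were 0.80 for HERVK-int at chr7:4591898-4599422, −0.79 for LTR5 and −0.23 for LTR5B. With TMM from repeats the knockdown values of LTR5B and LTR5_Hs were −0.0014 and −0.18. LTR5 with knockdown was 0.59 without its top locus and 0.43 without exonic loci, and LTR5_Hs with 4OHT was 0.092 without exonic loci.

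Groups share replicate numbers in their names, but same-numbered libraries of different groups did not deviate together (mean r 0.041, from −0.39 to 0.46 over 32 pairs, against −0.021 over 64 other pairs), so the numbers were not read as pairs. Pairs within a group were not checked. DMSO siNT 2-2V and 2-2VM differ only in the tag, as do 4OHT siSMARCA4 2-3V and 2-3VM, and 4-2V and 4-2VM. The labels do not say whether these are separate replicates. With the replicate block 3 loci and 1 subfamily (MER9a2 at 0.57, edgeR adjusted p = 0.0781, was lost) were called with knockdown, and 34 loci and 5 subfamilies with 4OHT. Depth limits loci such as the chromosome 4 provirus, which had 63 and 51 counts over the 6 4OHT siNT libraries.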
